A study of Mus musculus with 24 samples.

Results

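Levels are given for the genes of securin, separase and the spindle checkpoint with the regulators of its target, 10 of the 55401 genes counted in mouse oocytes: Pttg1, Espl1, Cdc20, Fzr1, Fbxo5, Mad2l1, Bub1, Bub1b, Bub3 and Ttk. They were chosen by symbol, each symbol matched 1 row of the count table, and all 10 passed the filter on low counts that left 16736 genes for testing. Chromosomes are held together by cohesin until separase, the protease encoded by Espl1, cuts it. Securin, encoded by Pttg1, keeps separase inactive until the anaphase-promoting complex (APC/C), a ubiquitin ligase, marks securin and cyclin B1 for destruction. The ligase needs an activator, Cdc20 or the Cdh1 protein of Fzr1, and is inhibited by the Emi1 protein of Fbxo5. Until kinetochores are attached to the spindle, Mad2 (Mad2l1), BubR1 (Bub1b) and Bub3 hold Cdc20 back, downstream of the kinases Bub1 and Mps1 (Ttk). In oocytes this system governs the first meiotic division, and Cdh1 is also known for holding oocytes in prophase arrest. The values below are RNA levels, and RNA level and protein level need not move together in oocytes, which store and later translate maternal RNA.

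RNA sequencing was done on pools of 5 oocytes, in 12 deposited libraries that the labels put into 6 groups of 2. The series asks how low doses of microplastics act on meiotic maturation and on histone deacetylases. PSMPs & OE-Hdac3 oocytes were exposed to polystyrene microplastics and overexpressed Hdac3, a class I histone deacetylase. SAHA oocytes received SAHA (vorinostat), an inhibitor of several histone deacetylases. In vitro PSMPs oocytes were exposed to the microplastics in culture and con-in vitro oocytes were their cultured controls. In vivo PSMPs oocytes were, by their label, exposed in the animal, and con oocytes are taken here as their controls. The labels give no oocyte stage, strain, age, dose or exposure time, do not say which control belongs to SAHA or by which route the PSMPs & OE-Hdac3 oocytes were exposed, and do not tell whether replicates are separate batches of animals; p-values therefore reflect the spread between libraries alone. For that reason SAHA was set against both controls and PSMPs & OE-Hdac3 against both PSMPs groups.

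Libraries held 6219784 to 35637689 counts and differed in more than their groups. Between both columns labelled in vivo PSMPs the counts agreed within sampling noise (a chi-square statistic of 0.444 per degree of freedom, while replicates elsewhere gave 16.5 to 384), so they count as 1 sample, which has no spread of its own. The con-in vitro libraries were the shallowest, at 6219784 and 6403283 counts, and 52.2% and 53.3% of their counts fell in 100 genes, against 19.0% to 36.1% elsewhere. Between 11640 and 12843 genes were detected in the con-in vitro and con libraries, against 17722 to 20957 in the others. Levels are given in CPM, a gene's counts scaled to one common library size after TMM normalization, and a log2 fold change has its standard error beside it. Scaling by library totals alone moved the median log2 change of all genes, to 1.70 (0.71 with TMM) where in vitro PSMPs and con-in vitro are compared and to -0.49 (0 with TMM) where con-in vitro and con are, so calls in these comparisons depend on the scaling. The overexpressed gene, Hdac3, reached 336 and 228 CPM where it was overexpressed, against 7.17 to 37.4 CPM in all others. The 15 oocyte markers, at most 1 of them at 0 in any library, summed to 17548 and 20658 CPM in PSMPs & OE-Hdac3 oocytes, 38849 and 43699 CPM in SAHA oocytes, 30591 and 38685 CPM in in vitro PSMPs oocytes, and 10899 and 12369 CPM in con-in vitro oocytes. They summed to 27850 CPM in in vivo PSMPs and 31853 and 34338 CPM in con oocytes. By this sum the con-in vitro and PSMPs & OE-Hdac3 libraries, which are lowest in Pttg1, were also lowest. The sum leans on abundant markers, as Gdf9 alone had 15251 and 13142 CPM in con oocytes. By the median of log2(CPM + 1) over the markers, the first con library, which is high in Pttg1, was the lowest. The con-in vitro libraries came next. In bulk samples, less RNA per cell and fewer cells that carry it cannot be told apart.

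Promoter sequence is shown for Cdc20 and Bub3, whose levels moved together in culture, and for Fbxo5, which moved apart from them. Each window runs from 250 bases before to 50 bases after a RefSeq start (GRCm38.p6), 5′ to 3′ on the gene's strand; all 10 genes had at least 1 window. For 8 genes a window held the start of the deposited gene model. The Pttg1 window lay wholly inside the deposited gene and the Mad2l1 window wholly before it, so neither is printed. Motif counts are given without and with these genes. Capitals mark TTTGAA or TTCGAA, the letters of the cell cycle genes homology region, and CCAAT, the letters read by the factor NF-Y, on either strand, so that TTCAAA and ATTGG are their reverse complements. The windows are chr4:118437294-118437593 (minus strand) for Cdc20, chr7:131560120-131560419 (plus) for Bub3 and chr10:5805416-5805715 (minus) for Fbxo5.
Cdc20: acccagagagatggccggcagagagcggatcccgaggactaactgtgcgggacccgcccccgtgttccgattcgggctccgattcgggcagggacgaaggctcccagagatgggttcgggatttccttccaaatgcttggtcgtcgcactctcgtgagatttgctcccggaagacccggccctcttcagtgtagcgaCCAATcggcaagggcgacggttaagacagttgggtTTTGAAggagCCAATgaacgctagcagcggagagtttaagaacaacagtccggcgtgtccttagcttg
Bub3: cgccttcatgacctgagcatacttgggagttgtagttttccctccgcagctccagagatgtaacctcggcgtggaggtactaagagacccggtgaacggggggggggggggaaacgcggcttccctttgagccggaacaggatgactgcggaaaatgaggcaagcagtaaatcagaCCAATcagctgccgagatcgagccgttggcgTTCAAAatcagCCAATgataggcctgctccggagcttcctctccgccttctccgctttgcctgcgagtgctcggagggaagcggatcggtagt
Fbxo5: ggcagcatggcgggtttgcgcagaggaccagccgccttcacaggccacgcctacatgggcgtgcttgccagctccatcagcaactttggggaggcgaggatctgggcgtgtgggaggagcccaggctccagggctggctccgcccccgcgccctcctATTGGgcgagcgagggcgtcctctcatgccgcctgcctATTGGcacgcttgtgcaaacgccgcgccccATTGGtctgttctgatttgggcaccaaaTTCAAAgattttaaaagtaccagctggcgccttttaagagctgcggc
The motif TTTGAA stood in a window of 6 of these 8 genes (Espl1, Cdc20, Fbxo5, Bub1b, Bub3 and Ttk), against 17.9% of the 32851 promoter windows in the RefSeq table. TTCGAA stood in the windows of Bub1 and Bub1b, against 1.56% of all windows. CCAAT stood in 8 of the 8, against 37.4% of all windows. With Pttg1 and Mad2l1 included, whose windows held none of these motifs, CCAAT stood in 8 of 10 genes and TTTGAA in 6 of 10. The shares of all windows count windows rather than genes, and were not limited to windows that hold a deposited gene start. Cdc20, Bub3 and Fbxo5 all held both TTTGAA and CCAAT. These matches describe letters, not sites that a factor was seen to bind.

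Securin RNA was abundant in 4 of the 6 groups. Pttg1 (chromosome 11, 43420250 to 43426251, minus strand, mm10) had 766 and 902 CPM in PSMPs & OE-Hdac3 oocytes, 6308 and 5652 CPM in SAHA oocytes, 3475 and 6088 CPM in in vitro PSMPs oocytes and 304 and 125 CPM in con-in vitro oocytes. It had 3644 CPM in in vivo PSMPs oocytes and 5853 and 5265 CPM in con oocytes. The con-in vitro libraries were the lowest and the PSMPs & OE-Hdac3 libraries the next, and neither group overlapped another. The other 4 groups, in the order of their means SAHA, con, in vitro PSMPs and in vivo PSMPs, overlapped from one to the next. Per kilobase of gene length, Pttg1 ranked between 8 and 20 of 16736 genes in those 4 groups, 55 and 50 in the PSMPs & OE-Hdac3 libraries, and 360 and 709 in the con-in vitro libraries. It made up between 0.427% and 0.600% of all counts in the SAHA, in vitro PSMPs, in vivo PSMPs and con libraries taken without any scaling, and 0.0165% and 0.00717% in the con-in vitro libraries.

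Separase RNA followed another order. Espl1 (chromosome 15, 102296266 to 102324357, plus strand) had 130 and 112 CPM in PSMPs & OE-Hdac3 oocytes, 63.5 and 75.4 CPM in SAHA oocytes, 39.6 and 68.7 CPM in in vitro PSMPs oocytes and 91.1 and 77.9 CPM in con-in vitro oocytes. It had 369 CPM in in vivo PSMPs oocytes and 662 and 453 CPM in con oocytes. The in vivo PSMPs and con libraries were all above every SAHA, in vitro PSMPs, con-in vitro and PSMPs & OE-Hdac3 library. The group means spanned 10.3-fold, against 27.8-fold for Pttg1.

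**Figure D1:**
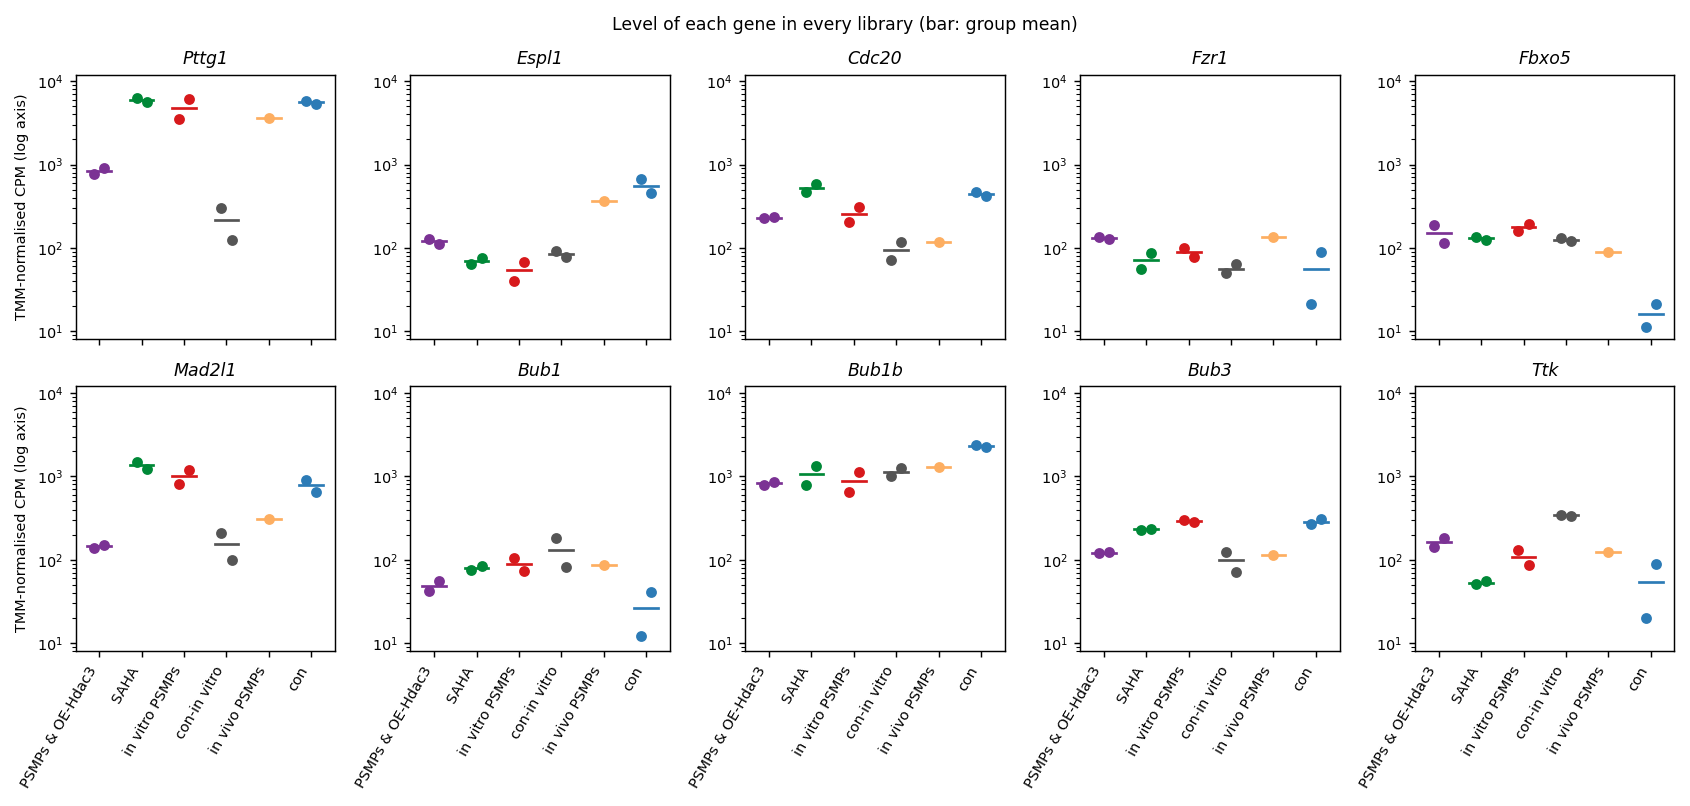
Level of each gene in every library, in TMM-scaled CPM on a log axis; points are libraries, bars are group means, and the groups run from PSMPs & OE-Hdac3 at the left to con at the right, with in vivo PSMPs as 1 sample. Pttg1 and Mad2l1 are low in con-in vitro and PSMPs & OE-Hdac3 oocytes, Espl1 is high in in vivo PSMPs and con oocytes, and Fbxo5 is lowest in con oocytes (16.2 CPM on average).

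Of the APC/C activators, Cdc20 varied more than Fzr1. Cdc20 (chromosome 4, 118432901 to 118437352, minus strand) had 230 and 233 CPM in PSMPs & OE-Hdac3 oocytes, 471 and 584 CPM in SAHA oocytes, 202 and 313 CPM in in vitro PSMPs oocytes and 70.6 and 116 CPM in con-in vitro oocytes. It had 117 CPM in in vivo PSMPs oocytes and 467 and 417 CPM in con oocytes. SAHA and con were the highest groups, and con-in vitro and in vivo PSMPs the lowest. Its exons overlap those of Elovl1 on the other strand; no source used here states a stranded library, so some of its 70430 counts may belong to Elovl1, which had 9746. Fzr1 (chromosome 10, 81366222 to 81378516, minus strand) stayed between 49.6 and 136 CPM in all libraries but the first con library, at 21.5 CPM, and its group means spanned 2.43-fold. The con libraries, at 21.5 and 88.9 CPM, enclosed the SAHA and con-in vitro ranges.

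The APC/C inhibitor gene Fbxo5 (chromosome 10, 5799160 to 5805600, minus strand) set the con group apart. It had 188 and 115 CPM in PSMPs & OE-Hdac3 oocytes, 134 and 126 CPM in SAHA oocytes, 159 and 194 CPM in in vitro PSMPs oocytes and 130 and 122 CPM in con-in vitro oocytes. It had 88.2 CPM in in vivo PSMPs oocytes and 11.3 and 21.1 CPM in con oocytes. Both con libraries lay below all others, and the 4 groups of highest mean overlapped from one to the next.

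Among the checkpoint genes, Mad2l1 and Bub3 had the profiles closest to that of Pttg1 (Pearson's r of 0.895 and 0.851 over the 11 libraries). They differed from it in in vivo PSMPs oocytes, where both lay below every SAHA, in vitro PSMPs and con library. Pttg1 there lay inside the in vitro PSMPs range. Mad2l1 (chromosome 6, 66535390 to 66547220, plus strand) had 140 and 151 CPM in PSMPs & OE-Hdac3 oocytes, 1501 and 1229 CPM in SAHA oocytes, 802 and 1209 CPM in in vitro PSMPs oocytes and 207 and 98.4 CPM in con-in vitro oocytes. It had 309 CPM in in vivo PSMPs oocytes and 916 and 656 CPM in con oocytes. The PSMPs & OE-Hdac3 range lay inside that of con-in vitro, and both lay below in vivo PSMPs. Bub3 (chromosome 7, 131560222 to 131571895, plus strand), whose protein brings Bub1 and BubR1 to the kinetochore, had 121 and 122 CPM in PSMPs & OE-Hdac3 oocytes, 228 and 236 CPM in SAHA oocytes, 297 and 286 CPM in in vitro PSMPs oocytes and 125 and 71.9 CPM in con-in vitro oocytes. It had 113 CPM in in vivo PSMPs oocytes and 265 and 306 CPM in con oocytes. SAHA, in vitro PSMPs and con lay above the other 3 groups without overlap.

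The kinase gene Ttk (chromosome 9, 83834689 to 83872389, plus strand) ran the other way. It had 143 and 183 CPM in PSMPs & OE-Hdac3 oocytes, 50.8 and 55.2 CPM in SAHA oocytes, 130 and 87.3 CPM in in vitro PSMPs oocytes and 346 and 337 CPM in con-in vitro oocytes. It had 125 CPM in in vivo PSMPs oocytes and 20.2 and 88.2 CPM in con oocytes. The con-in vitro libraries were the highest, and the con libraries differed from each other more than those of any other group. Bub1 (chromosome 2, 127801122 to 127831865, minus strand) had 41.8 and 55.4 CPM in PSMPs & OE-Hdac3 oocytes, 74.7 and 84.3 CPM in SAHA oocytes, 106 and 73.7 CPM in in vitro PSMPs oocytes and 180 and 81.4 CPM in con-in vitro oocytes. It had 86.4 CPM in in vivo PSMPs oocytes and 12.02 and 40.7 CPM in con oocytes, which lay below all other libraries. Bub1b (chromosome 2, 118598211 to 118641591, plus strand) was the steadiest checkpoint gene, with group means that spanned 2.81-fold. It ranged from 652 to 1324 CPM in the PSMPs & OE-Hdac3, SAHA, in vitro PSMPs, con-in vitro and in vivo PSMPs libraries, and had 2396 and 2271 CPM in con oocytes.

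The effect of microplastics in culture was read from in vitro PSMPs against con-in vitro. RNA for securin and for 3 checkpoint or APC/C genes was higher in exposed oocytes: Pttg1 by a log2 of 4.48 ± 0.50 (adjusted p = 0.000613), Mad2l1 by 2.72 ± 0.43 (adjusted p = 0.00343), Bub3 by 1.57 ± 0.34 (adjusted p = 0.0155) and Cdc20 by 1.46 ± 0.36 (adjusted p = 0.0275). In linear terms these were 22.3-fold, 6.59-fold, 2.96-fold and 2.75-fold. So 4 of 10 genes rose and 0 fell, where 15.4% of all genes tested were called, 8.57% higher and 6.78% lower; the median log2 change was 0.57 over the 10 genes and 0.71 over all genes. At an unadjusted p under 0.05 the count was 5, the fifth being Ttk, at -1.65 ± 0.60 (adjusted p = 0.0921). Ttk was called lower with DESeq2's test (log2 -1.70, adjusted p = 0.0303), which called 27.5% of all genes. Fbxo5, at 0.49 ± 0.40 (adjusted p = 0.421), was called higher with library totals (1.47, 0.0359), which called 25.3%. No other setting that kept every library called either gene. Espl1, the target of securin, was at -0.64 ± 0.37 (adjusted p = 0.249). Without the second in vitro PSMPs library Cdc20 (log2 1.11) and Bub3 (1.59) were no longer called, and without the first Bub3 was not (1.54). Those fits called fewer of all genes than the main fit. Without the first con-in vitro library Cdc20 was not called (1.15), in a fit that called more. Of the 15 oocyte markers 5 rose and 0 fell in the same comparison (median 1.94), among them Dppa3 (3.42 ± 0.45, adjusted p = 0.00145), Nlrp5 (3.12 ± 0.43, adjusted p = 0.0018) and Mos (2.64 ± 0.35, adjusted p = 0.00136). The con-in vitro libraries are also those with most counts in 100 genes, and the part of either in these changes was not tested.

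SAHA against con-in vitro, the comparison of deacetylase inhibition with cultured controls, gave calls for the same 4 genes, with the con-in vitro libraries shared. Pttg1 was higher by 4.80 ± 0.50 (adjusted p = 0.00041), Mad2l1 by 3.16 ± 0.44 (adjusted p = 0.00149), Cdc20 by 2.50 ± 0.38 (adjusted p = 0.00226) and Bub3 by 1.24 ± 0.34 (adjusted p = 0.0333). Ttk fell by 2.69 ± 0.62 on the log2 scale (adjusted p = 0.0177). The count was 4 higher and 1 lower of 10, against 19.8% of all genes, 11.7% higher and 8.14% lower, with medians of 0.19 and 0.66. Fbxo5 was at 0.04 ± 0.40 and Bub1b at -0.10 ± 0.36, with overlapping ranges. Of the oocyte markers 7 rose and 0 fell (median 2.00), and their part was not tested. Bub3 and Ttk lost their calls without the first SAHA library (log2 1.26 and -2.63) and without the second (1.21 and -2.75). The same held without the second con-in vitro library (0.89 and -2.71). Each of these fits called fewer of all genes than the main fit, most of all those without a SAHA library. Ttk also lost its call when libraries were scaled by their totals (0.0582), and Bub3 with no filter on low counts (0.0534), with only these 2 groups in the fit (0.063) and with the replicate number as a block (0.0561).

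Set against con instead, SAHA oocytes showed other genes. Fbxo5 was higher by 3.00 ± 0.43 (adjusted p = 0.00503), while Espl1 fell by 3.00 ± 0.39 (adjusted p = 0.0036) and Bub1b fell by 1.15 ± 0.36 (adjusted p = 0.046) on the log2 scale. That is 1 of 10 genes higher and 2 lower, where 27% of all genes were called, 20.2% higher and 6.75% lower; the medians were 0.18 and 0.59. Pttg1 was at 0.11 ± 0.43 (adjusted p = 0.894), with overlapping ranges, so securin RNA was not distinguishable between SAHA and con oocytes. Of the oocyte markers 5 rose and 1 fell. Without the first SAHA library Espl1 (log2 -2.89) and Bub1b (-0.82) were not called. Bub1b was not called without the second SAHA library (-1.57) or the first con library (-1.11). The fits without a SAHA library called far fewer of all genes than the main fit, so those losses are not particular to these genes. The fit without the first con library called more. Without the second con library, where 38.1% of all genes were called, Fzr1 (0.0361) and Bub1 (0.0168) were called higher as well. Bub1b also lost its call with DESeq2's size factors (0.0671), with DESeq2's own test (0.0542) and with only these 2 groups in the fit (0.111).

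**Figure D2:**
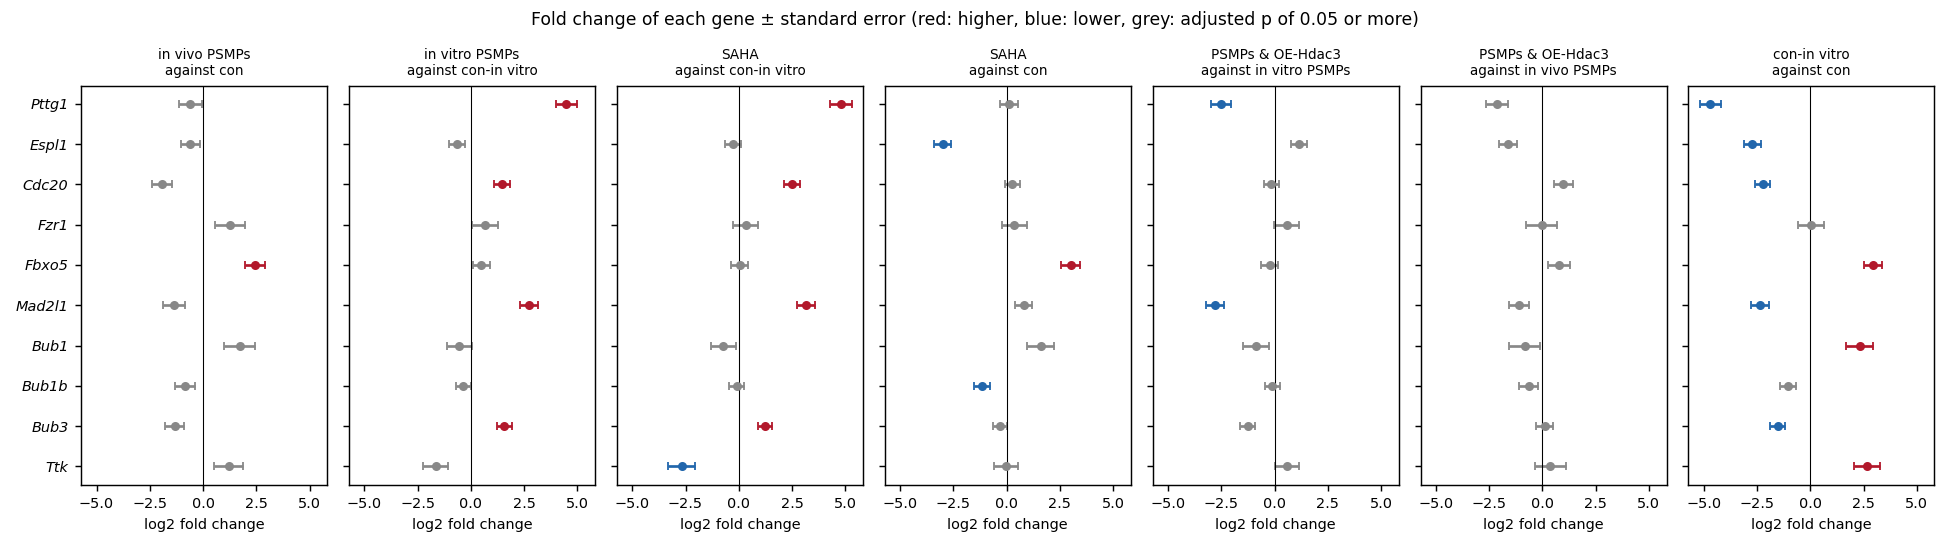
Log2 fold change of each gene (points) with its standard error (bars) in 7 comparisons; red marks genes called higher, blue genes called lower, and grey an adjusted p of 0.05 or more. Pttg1, Mad2l1, Cdc20 and Bub3 are red in both comparisons against con-in vitro and blue in con-in vitro against con, comparisons that share the con-in vitro libraries.

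Exposure of the animals, in vivo PSMPs against con, gave 1 call among the 10 genes. Fbxo5 was higher by 2.44 ± 0.47 on the log2 scale (adjusted p = 0.0463), 5.44-fold. So 1 of 10 genes rose and 0 fell, where 4.88% of all genes were called, 4.59% higher and 0.287% lower, and the medians were -0.60 over the 10 genes and 0.25 over all genes. At an unadjusted p under 0.05 the count was 5, with Cdc20 at -1.92 ± 0.48 (adjusted p = 0.0523), Bub3 at -1.33 ± 0.43 (adjusted p = 0.0843), Mad2l1 at -1.35 ± 0.52 (adjusted p = 0.135) and Bub1 at 1.71 ± 0.71 (adjusted p = 0.162). Pttg1 (-0.61 ± 0.54) and Espl1 (-0.59 ± 0.46) were both lower than either con library in the single in vivo PSMPs sample, but not beyond the error of the fit. The 20 markers of cumulus and granulosa cells, the somatic cells around the oocyte, summed to 167 CPM in in vivo PSMPs oocytes, against 47.5 and 70.8 CPM in con oocytes, with 4 markers at 0 against 15 in each con library. Inha stood at 59.4 CPM in in vivo PSMPs oocytes and at 0 in con oocytes, and Foxl2, which defines granulosa cells, at 0.670 CPM and 0; their part in the Fbxo5 result was not tested. Fbxo5 had 130 and 122 CPM in con-in vitro oocytes, whose markers summed to 101 and 35.8 CPM with 14 and 15 at 0. Those cultured libraries were also shallower, and what sets their Fbxo5 level was not tested. Fbxo5 lost its call with only these 2 groups in the fit (adjusted p = 0.618), which called 0 of all genes, and with the replicate block (0.108), which called 4. Some settings that called a larger share of all genes called more of the 10 as well, but library totals (7.19%) did not. No filter on low counts called a slightly smaller share (4.84%) and also called Cdc20 lower (log2 -1.91). Without the first con library, where 16.8% of all genes were called, Cdc20 was called lower (0.0461). Without the second, where 25.9% were, Cdc20 was again called lower (0.0207), while Fzr1 (0.0131), Bub1 (0.0215) and Ttk (0.0111) were called higher. With the in vivo PSMPs columns taken as 2 libraries, which called 24.98% of all genes, Cdc20 (0.00808), Mad2l1 (0.0288) and Bub3 (0.0133) were called lower. With DESeq2's test, which called 16.1%, Cdc20 (0.00218) and Bub3 (0.0122) were.

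The response differed between culture and animal for the 4 genes that rose in culture. The in vitro effect minus the in vivo effect was 5.09 ± 0.78 for Pttg1 (adjusted p = 0.00616), 4.07 ± 0.70 for Mad2l1 (adjusted p = 0.00903), 3.38 ± 0.61 for Cdc20 (adjusted p = 0.0103) and 2.90 ± 0.56 for Bub3 (adjusted p = 0.0134) on the log2 scale. It was called higher for 4 of 10 genes and lower for 0, against 11.3% of all genes, 4.87% higher and 6.4% lower. Ttk, at -2.86 ± 0.90 (adjusted p = 0.0737), and Fbxo5, at -1.95 ± 0.63 (adjusted p = 0.0767), missed the threshold. Both were called lower with the in vivo PSMPs columns as 2 libraries and with DESeq2's test. Ttk was also called lower with no filter on low counts. The other settings that kept every library called neither. Without 1 library, the log2 difference ranged from 4.58 to 5.86 for Pttg1 and from 3.63 to 4.70 for Mad2l1. It ranged from 3.03 to 3.79 for Cdc20 and from 2.55 to 3.35 for Bub3. The in vivo PSMPs sample was never left out, as its columns count as 1 sample, so dependence on it was not tested. With only the 4 groups concerned in the fit, Cdc20 (adjusted p = 0.0632), Mad2l1 (0.0672) and Bub3 (0.094) lost their calls. Pttg1 kept its call in that fit. That fit called 1.52% of all genes. Without the second con library, where 30.04% of all genes were called, the difference was also called lower for Ttk (0.00223), Bub1 (0.0167) and Fbxo5 (0.0157), and without the first, where 22.3% were, for Ttk (0.0297). Of the oocyte markers 4 were called higher and 0 lower for the difference. Both effects rest on their own controls, and those controls differed from each other.

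Those controls, con-in vitro against con, differed in 8 of the 10 genes. Pttg1 fell by 4.69 ± 0.50 (adjusted p = 0.00045), Espl1 by 2.72 ± 0.39 (adjusted p = 0.0017), Mad2l1 by 2.37 ± 0.42 (adjusted p = 0.00503), Cdc20 by 2.24 ± 0.37 (adjusted p = 0.00343) and Bub3 by 1.54 ± 0.34 (adjusted p = 0.0121) on the log2 scale. Fbxo5 was higher by 2.96 ± 0.43 (adjusted p = 0.00194), Ttk by 2.66 ± 0.62 (adjusted p = 0.0157) and Bub1 by 2.31 ± 0.63 (adjusted p = 0.0297). The count was 3 higher and 5 lower, where 25.1% of all genes were called, 14.7% higher and 10.5% lower, and the medians were -1.29 over the 10 genes and 0 over all genes. Culture, depth and the share of counts in 100 genes all differ between these groups and cannot be told apart. Of the oocyte markers 0 rose and 5 fell, and their part was not tested. Bub1 lost its call without the first con-in vitro library (log2 1.63) and without the first con library (1.69). Bub1b was at -1.04 ± 0.36 (adjusted p = 0.0666). It was called lower with library totals (-1.90, adjusted p = 0.00283), with no filter on low counts (0.0383) and with the in vivo PSMPs columns as 2 libraries (0.0383). The other settings that kept every library did not call Bub1b. Without the second con library Bub1b was at -1.25. With library totals Bub1 (0.153) and Ttk (0.0797) were not called; with only these 2 groups in the fit, which called 7.495% of all genes, Fbxo5 (0.0608), Mad2l1 (0.0511), Bub1 (0.181), Bub3 (0.109) and Ttk (0.119) were not, which left Pttg1, Espl1 and Cdc20.

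Overexpression of Hdac3 was set against exposure alone. Relative to in vitro PSMPs oocytes, PSMPs & OE-Hdac3 oocytes had less securin and Mad2 RNA: Pttg1 fell by 2.52 ± 0.45 (adjusted p = 0.0199) and Mad2l1 fell by 2.79 ± 0.43 (adjusted p = 0.014) on the log2 scale, which left them at 0.174 and 0.145 of the in vitro PSMPs level. So 0 of 10 genes rose and 2 fell, where 4.83% of all genes were called, 1.85% higher and 2.98% lower; the medians were -0.19 and 0.09. Bub3 was at -1.26 ± 0.34 (adjusted p = 0.069) and Espl1 at 1.16 ± 0.37 (adjusted p = 0.117), both without overlap between libraries, and Cdc20 at -0.15 ± 0.35 (adjusted p = 0.851). Both calls were lost without the first PSMPs & OE-Hdac3 library (log2 -2.47 for Pttg1 and -2.80 for Mad2l1). The same held without the second (-2.74 and -2.95) and without the second in vitro PSMPs library (-2.06 and -2.46). These fits, with 1 library in a group, called almost no gene at all, so the losses are not particular to these genes. Of the oocyte markers 0 rose and 2 fell, Nlrp5 by 2.50 ± 0.42 (adjusted p = 0.016) and Bmp15 by 2.36 ± 0.31 (adjusted p = 0.0113) on the log2 scale, and their part in the Pttg1 and Mad2l1 changes was not tested. With only these 2 groups in the fit Espl1 (adjusted p = 0.0291) was called higher and Bub3 (0.00894) lower as well, 4 of the 10 genes where 39.3% of all genes were called. With DESeq2's test, which called 15.4% of all genes, the same 2 genes were called as well (0.0448 and 0.00341). Against in vivo PSMPs the count was 0 of 10, and edgeR's test called 0% of all genes; 3 of the 10 and 2407 of all genes had an unadjusted p under 0.05, and DESeq2's test called 519 genes higher and 330 lower. Pttg1 was at -2.13 ± 0.51 (adjusted p = 0.17), Espl1 at -1.61 ± 0.43 (adjusted p = 0.191) and Mad2l1 at -1.09 ± 0.48 (adjusted p = 0.344). A fit of only these 2 groups has 3 libraries, 1 of them the single in vivo PSMPs sample, so its spread comes from the PSMPs & OE-Hdac3 pair alone; it called 6 of the 10 genes and 46.5% of all genes.

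Ratios within a library do not depend on how libraries are scaled. They were computed for 5 pairs chosen with the levels known, and are given as a description from counts per kilobase. The ratio of Pttg1 to Espl1, inhibitor to protease, was 25.9 and 35.1 in PSMPs & OE-Hdac3 oocytes, 434 and 328 in SAHA oocytes, 384 and 388 in in vitro PSMPs oocytes and 14.6 and 7.05 in con-in vitro oocytes. It was 43.1 in in vivo PSMPs oocytes and 38.7 and 50.9 in con oocytes. The 4 SAHA and in vitro PSMPs libraries stood above every other library, and in vivo PSMPs lay inside the con range. The ratio of the activators, Cdc20 to Fzr1, was 4.05 and 4.41 in PSMPs & OE-Hdac3 oocytes, 20.5 and 16.2 in SAHA oocytes, 4.86 and 9.66 in in vitro PSMPs oocytes, 3.42 and 4.41 in con-in vitro oocytes, 2.09 in in vivo PSMPs oocytes and 52.3 and 11.3 in con oocytes. The single in vivo PSMPs value was the lowest of all. The ratio of Bub1b to Bub1, relatives that arose from one ancestral gene, was between 5.76 and 19.5 in the libraries of the 5 other groups, against 203 and 56.9 in con oocytes. The ratio of Fbxo5 to Fzr1, inhibitor to activator, was between 2.03 and 5.88 in the PSMPs & OE-Hdac3, SAHA, in vitro PSMPs and con-in vitro libraries, 1.47 in in vivo PSMPs oocytes and 1.18 and 0.531 in con oocytes, the lowest of all. The ratio of Cdc20 to Mad2l1, checkpoint target to checkpoint effector, was 7.39 and 6.92 in PSMPs & OE-Hdac3 oocytes, above every other library, and 1.13 and 1.16 in in vitro PSMPs oocytes, below every other library.

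**Figure D3:**
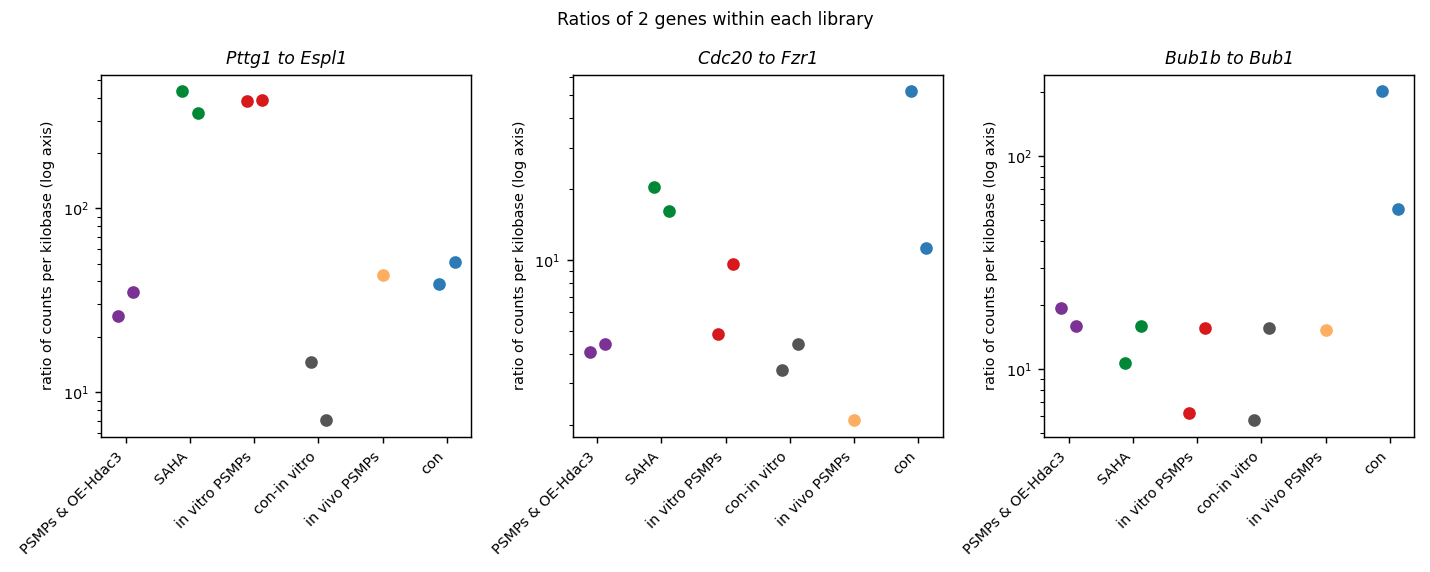
Ratio of counts per kilobase for 3 pairs of genes in each library, on log axes; points are libraries, in the same order of groups from PSMPs & OE-Hdac3 to con. Pttg1 to Espl1 lies between 328 and 434 in the SAHA and in vitro PSMPs libraries and below them elsewhere, and Bub1b to Bub1 is highest in the con libraries.

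Genes with the most similar profile were found for Pttg1 and Fbxo5 by Pearson's r of log2(CPM + 1) over the 11 libraries, among genes of at least 10 CPM on average. Those nearest to Pttg1 were Unc50 (r = 0.993), Nit2 (0.992), Cep57l1 (0.991), Med27 (0.991) and Tesc (0.990). Those nearest to Fbxo5 were Zcchc17 (r = 0.989), Pcyt1a (0.971), Nr2e1 (0.970), Tnfaip8 (0.969) and Smc1b (0.967). The libraries of a group share their condition, so these values describe the profile and are not a test.

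Other genes of the pathway were read from 3 lists. Of 25 further checkpoint and kinetochore genes, all tested, 7 rose and 1 fell in in vitro PSMPs against con-in vitro, 8 rose and 1 fell in SAHA against con-in vitro, and 1 rose and 6 fell in con-in vitro against con, comparisons that share the con-in vitro libraries. Over all genes 15.4%, 19.8% and 25.1% were called in these comparisons. The list's median log2 change was 1.20, 1.20 and -0.38, against 0.71, 0.66 and 0 over all genes. Leaving out 1 library, the calls of the list ranged from 2 to 7, from 3 to 11 and from 5 to 11. Aurkc, which encodes the aurora kinase of the chromosomal passenger complex typical of germ cells, had 145 and 165 CPM in in vitro PSMPs oocytes and 190 and 186 CPM in SAHA oocytes, against 16.6 and 21.0 CPM in con-in vitro oocytes. It was higher by 3.04 ± 0.35 (adjusted p = 0.000614) and 3.32 ± 0.35 (adjusted p = 0.000367), and these calls held in every alternative. Incenp, the scaffold of the same complex, moved against it, with 19.5 and 37.9 CPM in in vitro PSMPs oocytes and 106 and 306 CPM in con-in vitro oocytes; it fell by 2.84 ± 0.58 on the log2 scale (adjusted p = 0.0128), a call lost without the first in vitro PSMPs library (0.104) or the second con-in vitro library (0.052). In PSMPs & OE-Hdac3 oocytes Incenp had 172 and 167 CPM and was higher than in in vitro PSMPs by 2.56 ± 0.58 (adjusted p = 0.0408). That call was lost without any 1 of these 4 libraries (log2 2.16 to 3.12). In vivo PSMPs against con called 0 of the 25 genes (0 to 7 leaving out 1 library), against 4.88% of all genes. SAHA against con called 0 higher and 3 lower (0 to 9), against 27% of all genes. PSMPs & OE-Hdac3 against in vitro PSMPs called 1 higher and 1 lower, against 4.83% of all genes. Both calls were lost whichever library was left out, in fits that called few or almost no genes at all.

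Of the 17 genes for APC/C core subunits and its E2 enzymes, 5 rose and 0 fell in in vitro PSMPs against con-in vitro (median 1.72), 7 rose and 1 fell in SAHA against con-in vitro (median 1.74), and 3 rose and 4 fell in con-in vitro against con (median -0.09), beside the shares and medians of all genes given above. Leaving out 1 library, these calls ranged from 1 to 9, from 2 to 9 and from 5 to 7. Cdc26, a small subunit that stabilises the complex, had 42.5 and 67.4 CPM in in vitro PSMPs oocytes and 75.7 and 48.2 CPM in SAHA oocytes, against 3.86 and 7.10 CPM in con-in vitro oocytes. It was higher by 3.32 ± 0.60 (adjusted p = 0.00649) and 3.49 ± 0.60 (adjusted p = 0.00442), again in every alternative. In PSMPs & OE-Hdac3 against in vitro PSMPs 1 rose and 3 fell (4.83% of all genes called), and with library totals 1 rose and 0 fell. Leaving out any 1 library of these groups ended every call, in fits that called few or almost no genes at all. SAHA against con gave 3 higher and 1 lower (27% of all genes called; 0 to 6 leaving out 1 library), and in vivo PSMPs against con 0 (0 to 2).

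Of 15 other regulators and substrates of anaphase, 14 were tested. Ccnb1, which encodes cyclin B1, the APC/C substrate destroyed beside securin, had 725 and 943 CPM in PSMPs & OE-Hdac3 oocytes, 7431 and 7781 CPM in SAHA oocytes, 3474 and 5139 CPM in in vitro PSMPs oocytes and 590.2 and 401 CPM in con-in vitro oocytes. It had 1488 CPM in in vivo PSMPs oocytes and 3801 and 2522 CPM in con oocytes, so that, as for Pttg1, con-in vitro was the lowest group and PSMPs & OE-Hdac3 the next. Relative to con-in vitro Ccnb1 was higher in in vitro PSMPs by 3.12 ± 0.37 (adjusted p = 0.000871). It fell in PSMPs & OE-Hdac3 against in vitro PSMPs by 2.37 ± 0.36 on the log2 scale (adjusted p = 0.0135). This second call was lost without either PSMPs & OE-Hdac3 library (log2 -2.26 and -2.67) or the second in vitro PSMPs library (-2.06). Those fits called almost no gene at all. Rad21, a cohesin subunit that separase cuts, had 22.7 and 44.99 CPM in in vitro PSMPs oocytes and 146 and 158 CPM in con-in vitro oocytes and fell by 2.17 ± 0.48 on the log2 scale (adjusted p = 0.0178), a call lost without the first in vitro PSMPs library (0.116), without the second con-in vitro library (0.054) and with library totals (0.0527). Smc1b, a meiotic cohesin subunit, had 720 counts in the in vivo PSMPs sample (18.6 CPM) and 0 and 2 counts in the con libraries. It averaged 29.0 CPM in con-in vitro oocytes, higher than con by 9.69 ± 1.03 (adjusted p = 0.000427), and 39.0 CPM in SAHA oocytes. A level above con was thus not limited to oocytes exposed to microplastics. Rad21l, another meiotic cohesin subunit, had 263 and 353 counts in the SAHA libraries and 0 in each con-in vitro and con library. Over the list, 3 genes rose and 1 fell in in vitro PSMPs against con-in vitro (2 to 4 calls leaving out 1 library), where 15.4% of all genes were called. Likewise 3 rose and 1 fell in SAHA against con-in vitro (2 to 5), against 19.8%, and 4 rose and 1 fell in SAHA against con (1 to 8), against 27%. In in vivo PSMPs against con 2 rose and 0 fell (2 to 4), against 4.88%, and in PSMPs & OE-Hdac3 against in vitro PSMPs 0 rose and 2 fell (0 to 2), against 4.83%. In con-in vitro against con 1 rose and 2 fell (3 to 7), against 25.1%.

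**Figure D4:**
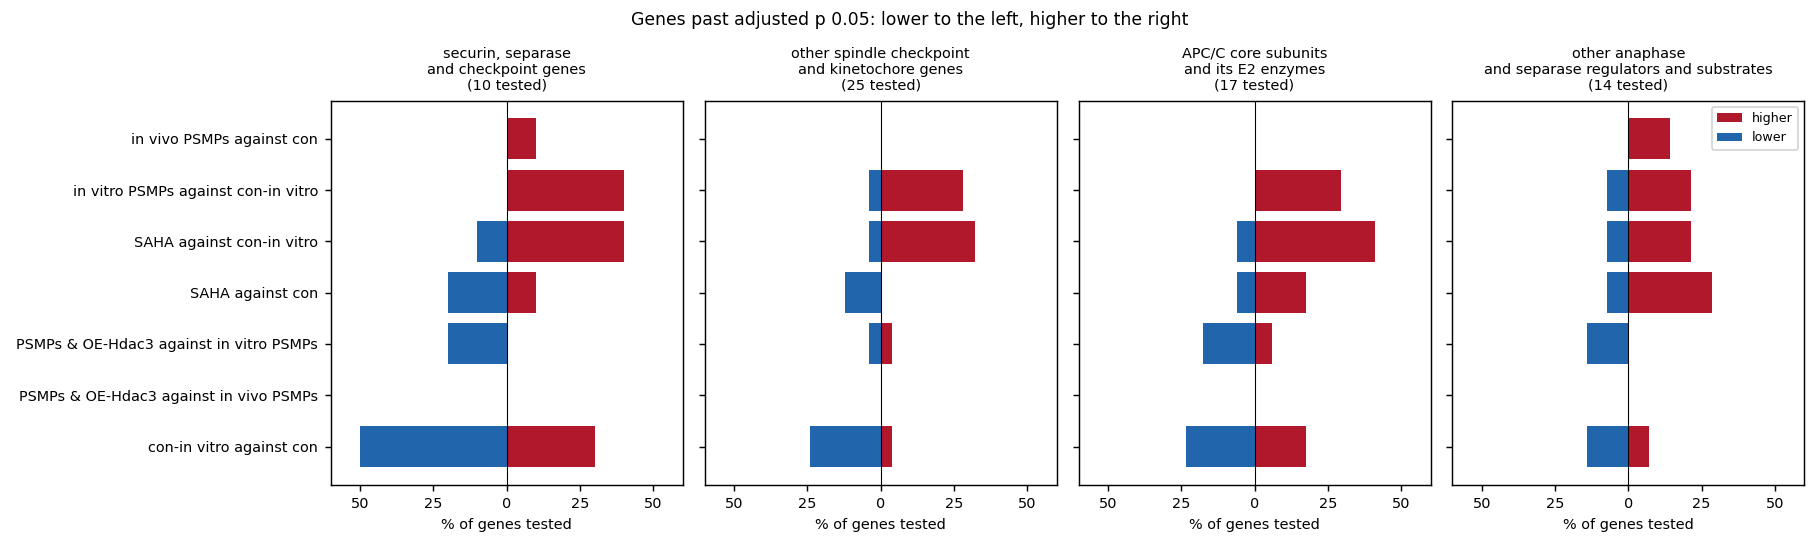
Share of the tested genes called higher (red, right) and lower (blue, left) in each comparison, for the 10 genes and for the 3 lists of other genes of the pathway. The 10 genes and all 3 lists have more genes called higher than lower in both comparisons against con-in vitro, as do all genes tested (1435 against 1135 and 1950 against 1363), and PSMPs & OE-Hdac3 against in vivo PSMPs has no call, as over all genes.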

How the data were processed

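RNA of mouse oocytes, 5 pooled per library, was amplified with a full-length single-cell kit and tagged with a transposase, per the labels' protocols. The authors deposited raw read counts per gene in 12 columns for 55401 genes, with gene models and their lengths; these whole-number counts were used as deposited. The submitters' processing notes name HISAT2, featureCounts, DESeq2 and the build mm10 beside fastp 0.12.4, Bowtie2 2.2.5, Picard, SAMtools and deepTools 3.5.1, with no role for each; the handling of strand and of reads shared by near copies is not given in the sources used here. Libraries of H4K16 acetylation in the same series were not analysed here.

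Columns were matched to samples by their titles. Low genes were left out with filterByExpr of edgeR (minimum count 10) applied to the 12 columns, the 2 in vivo PSMPs columns were merged as their rounded mean, and that group was assumed to vary like the others. In R 4.3.3, edgeR 4.0.16 fitted 1 coefficient per group to 11 libraries after TMM scaling (factors 0.542 to 1.57), with a robust quasi-likelihood dispersion, 5 residual degrees of freedom and a biological coefficient of variation of 71.9%. The quasi-likelihood F test was two-sided and adjusted over all 16736 genes by the Benjamini-Hochberg method, and a gene was called at an adjusted p under 0.05. The standard error is the log2 change over the square root of F. Levels across genes use counts per kilobase of the deposited gene length. The steps were tested on simulated data. DESeq2 1.42.0 served as an alternative, beside other scalings, no filter, a replicate block, fits of only the groups compared, unmerged columns and leaving out each library.

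The 10 genes and 5 gene lists of 92 genes were chosen with earlier results of these data known. The text names all 10 genes; of each list it draws on the 3 largest changes per direction and comparison among called genes whose higher group averages 10 CPM or more, and names the 5 genes most like Pttg1 and Fbxo5. Promoter sequences are RefSeq's.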

Additional observations from a re-analysis of the deposited data

Results flagged for a closer look

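For 4 genes the effect of microplastics differed between culture and animal by a test of the difference itself, (in vitro PSMPs minus con-in vitro) minus (in vivo PSMPs minus con), on the log2 scale with edgeR's quasi-likelihood test adjusted over all genes. Pttg1 differed by 5.09 (adjusted p = 0.00616), as it stood at 22.3-fold the con-in vitro level in in vitro PSMPs oocytes and at 0.656 of the con level in in vivo PSMPs oocytes. Mad2l1 differed by 4.07 (adjusted p = 0.00903), with 6.59-fold in culture and 0.392 of the con level in vivo. Cdc20 differed by 3.38 (adjusted p = 0.0103), with 2.75-fold in culture and 0.264 of the con level in vivo. Bub3 differed by 2.90 (adjusted p = 0.0134), with 2.96-fold in culture and 0.397 of the con level in vivo. None of the 4 in vivo effects was called by itself. The in vivo arm rests on 1 PSMPs sample, and the culture arm on con-in vitro libraries in which 52.2% and 53.3% of counts fell in 100 genes, against 31.5% and 33.9% in the in vitro PSMPs libraries; the part of these in the difference was not tested.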

How the results depend on the processing

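The calls of the 10 genes depended on the library left out and on the groups that share the estimate of the spread, and no called gene changed direction in any setting. Called genes were 1 in in vivo PSMPs against con, but 2 with no filter on low counts (4.84% of all genes called), 0 with the replicate block (0.0239%), 0 with only the groups compared (0%), 4 with the in vivo PSMPs columns as 2 libraries (24.98%), 3 with DESeq2's test (16.1%) and 1 to 5 leaving out 1 library. In PSMPs & OE-Hdac3 against in vitro PSMPs they were 2, but 4 with only the groups compared (39.3%), 4 with DESeq2's test (15.4%) and 0 to 2 leaving out 1 library. In PSMPs & OE-Hdac3 against in vivo PSMPs they were 0, but 1 with no filter (0.414%), 2 with unmerged columns (8.10%), 6 with only the groups compared (46.5%), 1 with DESeq2's test (5.07%) and 0 to 0 leaving out 1 library. In con-in vitro against con they were 8, but 3 with only the groups compared (7.495%) and 7 to 9 leaving out 1 library. For the difference between the PSMPs effects they were 4, but 1 with only the groups compared (1.52%) and 4 to 7 leaving out 1 library. Leaving out 1 library also moved the counts for in vitro PSMPs relative to con-in vitro and for SAHA against either control. The share of all genes called moved as well in these fits with 1 library in a group, so the changes are not particular to these genes. The cause was not tested. In PSMPs & OE-Hdac3 against in vitro PSMPs, most fits with 1 library left out called almost no gene at all. No fit left out the in vivo PSMPs sample, as its columns count as 1 sample.

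Counted over all genes, library totals gave 3473 calls higher and 758 lower for in vitro PSMPs relative to con-in vitro (1435 and 1135 with TMM), 3222 and 922 in SAHA against con-in vitro (1950 and 1363), 548 and 306 in PSMPs & OE-Hdac3 against in vitro PSMPs (309 and 499), 1872 and 3025 in con-in vitro against con (2452 and 1753), and 1320 and 826 for the difference (815 and 1071). The median of all genes moved to 0.58 against 0.25 in in vivo PSMPs against con and to 1.37 against 0.66 in SAHA against con-in vitro. The correlations of the deviations of same-numbered libraries were -0.288 to 0.0566 over 10 pairs of groups. They gave no sign of pairing by replicate number, but cannot tell whether libraries shared a batch, since these numbers need not mark batches. The replicate block ended 3 calls. Fbxo5 lost its call in in vivo PSMPs against con (log2 2.45, adjusted p = 0.108). So did Bub3 in SAHA against con-in vitro (1.25, 0.0561) and Bub1 in con-in vitro against con (2.37, 0.0527).

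Uncalled log2 changes turned sign in these settings. With library totals they were 0.31 for Espl1, 0.50 for Bub1 and 0.60 for Bub1b in in vitro PSMPs against con-in vitro; 0.43 for Espl1, 0.0065 for Bub1 and 0.60 for Bub1b in SAHA against con-in vitro; -0.039 for Pttg1 in SAHA against con; 0.38 for Cdc20, 0.29 for Fbxo5 and 0.45 for Bub1b in PSMPs & OE-Hdac3 against in vitro PSMPs; 0.27 for Fzr1 against in vivo PSMPs; -0.89 for Fzr1 in con-in vitro against con; and 0.55 for Espl1 and 0.11 for Fzr1 in the difference. Ttk in SAHA against con was 0.13 with DESeq2's size factors and its test and 0.078 with the replicate block, and Fzr1 in PSMPs & OE-Hdac3 against in vivo PSMPs was 0.097 with both DESeq2 settings. With only the groups compared, Bub1b in SAHA against con-in vitro was 0.046, Bub3 in PSMPs & OE-Hdac3 against in vivo PSMPs -0.013, Fzr1 in con-in vitro against con -0.098 and Espl1 in the difference 0.30.

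Leaving out 1 library also turned the sign of uncalled changes. In SAHA against con-in vitro Fbxo5 ranged from -0.0046 to 0.090, Bub1b from -0.53 to 0.22 and Fzr1 from -0.031 to 0.61. In SAHA against con Ttk ranged from -0.74 to 1.20, Fzr1 from -0.33 to 1.53, Pttg1 from -0.16 to 0.18 and Cdc20 from -0.020 to 0.40. In PSMPs & OE-Hdac3 against in vitro PSMPs Cdc20 ranged from -0.44 to 0.20 and Bub1b from -0.44 to 0.35. Bub1 ranged from -1.002 to 0.15 in in vitro PSMPs against con-in vitro, and Fzr1 from -0.65 to 1.22 in con-in vitro against con. For the difference Espl1 ranged from -0.50 to 0.29 and Fzr1 from -1.89 to 0.060. Depth was 6219784 and 6403283 counts in the con-in vitro libraries, so 3 counts there correspond to 0.482 and 0.469 CPM, below every level of the 10 genes; each group has at most 2 libraries, which limits the precision.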
